A study of Homo sapiens with 18 samples.

Results

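Amino acid transporters carry amino acids across the plasma membrane, and 10 of their genes were followed here: SLC7A11, SLC3A2, SLC7A5, SLC7A6, SLC7A1, SLC1A4, SLC1A5, SLC38A1, SLC38A2 and SLC6A9. Each was read from the probe sets annotated with exactly 1 gene symbol. The brightest probe set stood for the gene and the others served as a check. All 10 were among the 10713 genes tested, those with a mean of at least 4 on the log2 scale in 1 or more groups. SLC6A9 reached that level only at 48 h, and the other 9 reached it in every group.

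The arrays measured RNA from HK-2 cells, a human proximal tubular epithelial line immortalized with papillomavirus genes. Cultures were exposed to CsA (usually cyclosporin A, an immunosuppressant that can harm the kidney) or to vehicle as the control, for 12, 24 or 48 h. The labels used here give no dose of CsA. Each of the 6 groups held 3 arrays, which the labels call biological replicates, so 18 arrays were compared. The series forms part of a search for expression signatures of kidney toxicity.

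SLC3A2 encodes the heavy chain that brings several light chains to the cell surface. With SLC7A11 it forms the exchanger that imports cystine in return for glutamate, which supplies cysteine for glutathione. Cells short of amino acids, or with unfolded protein in the endoplasmic reticulum, make the transcription factor ATF4, which binds C/EBP-ATF response elements and raises many transporter genes. NRF2, the product of NFE2L2, acts on antioxidant response elements and is also known to raise SLC7A11. Renal tubule cells are known for their heavy amino acid traffic.

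The promoters of 9 of the 10 genes, all but SLC7A11, were searched for these 2 kinds of element in RefSeq windows that run from 250 bases before to 50 after an annotated start (GRCh38.p14). Several genes had more than 1 start, and the 9 genes had 15 windows. The C/EBP-ATF letters TGATGNAA, read on both strands, were present in 5 of the 15 windows, belonging to SLC3A2, SLC7A1, SLC1A4, SLC1A5 and SLC38A1. Of all 35116 windows, 3.62% held them. The antioxidant response letters TGACNNNGC, read the same way, were present in 5 of the 15 windows, belonging to SLC3A2, SLC7A5, SLC7A1, SLC1A5 and SLC7A6, against 13.3% of all windows. No match of one motif overlapped a match of the other. A match is a run of letters and not a measured binding site, and the arrays did not measure binding. The stretches from position -100 to 25 relative to the start (there is no position 0) are shown for 5 genes that rose with time in control cultures and hold a match in that window, with the matches in capitals.
SLC3A2, chr11:62881599-62881723, plus strand: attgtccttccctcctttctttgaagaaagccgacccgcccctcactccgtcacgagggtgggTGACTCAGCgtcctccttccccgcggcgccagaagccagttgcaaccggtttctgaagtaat
SLC7A5, chr16:87869483-87869607, minus strand: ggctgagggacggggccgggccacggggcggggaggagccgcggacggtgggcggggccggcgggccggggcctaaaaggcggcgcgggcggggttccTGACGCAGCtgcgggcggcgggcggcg
SLC7A1, chr13:29595664-29595788, minus strand: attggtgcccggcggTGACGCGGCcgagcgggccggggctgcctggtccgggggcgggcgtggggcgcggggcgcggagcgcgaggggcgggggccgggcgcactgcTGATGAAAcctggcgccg
SLC1A4, chr2:64989299-64989423, plus strand: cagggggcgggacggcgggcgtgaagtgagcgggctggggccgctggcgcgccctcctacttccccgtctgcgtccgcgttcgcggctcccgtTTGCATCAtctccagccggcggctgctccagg
SLC38A1, chr12:46266492-46266616, minus strand: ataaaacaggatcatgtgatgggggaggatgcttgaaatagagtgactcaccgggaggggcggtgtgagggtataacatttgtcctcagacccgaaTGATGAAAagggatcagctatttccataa
In SLC3A2 the capitals mark the antioxidant response letters, and its C/EBP-ATF letters, TTACATCA, lie at bases 38 to 45 after the start, beyond the stretch. In SLC7A5 the antioxidant response letters span the start. SLC7A1 has both motifs, the antioxidant one first. SLC1A4 and SLC38A1 have the C/EBP-ATF letters at the start itself.

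Values are GCRMA values, taken as log2, and differences are on that scale. Array medians lay between 2.86 and 2.92. Replicate 3 stood apart: within a group its differences from the other two replicates had an SD over genes of 0.632 to 0.795, against 0.225 to 0.494 between replicates 1 and 2. Arrays with the same number deviated together, so each CsA array was also set against the control array of its number, and values with replicate number as a block are given where they change a call. Of 19 annotated genes on a list for epithelium and proximal tubule, 8 reached 4: PAX8, KRT8, KRT18, KRT19, EPCAM, CDH1, CDH2 and VIM. VIM, which is not particular to epithelium, was the brightest of the 8, with group means from 13.76 to 13.94. The apical tubule markers LRP2, CUBN, AQP1, GGT1 and SLC34A1 did not reach 4. None of 6 endothelial and 4 leukocyte markers reached 4, and 4 of 8 fibroblast markers did (COL1A1, COL3A1, DCN and LUM).

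Most of these transporters were higher in control cultures at 48 h than at 24 h. Between 24 and 48 h in control cultures, 7 of the 10 rose (limma, adjusted p under 0.05), or 6 of 9 without SLC6A9, and 0 fell. Among all genes tested 14.5% were called, 7.33% as higher. With the replicate block 9 rose, against 16.6% of all genes called higher and 32.6% called in either direction. The CsA differences of the 10 had a median of 0.00 at 12 h, 0.33 at 24 h and 0.11 at 48 h. None of the 10 differed between CsA and control at any time in the fit without a block. With the block, SLC7A11 rose at 24 h and SLC3A2 at 48 h.

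**Figure D1:**
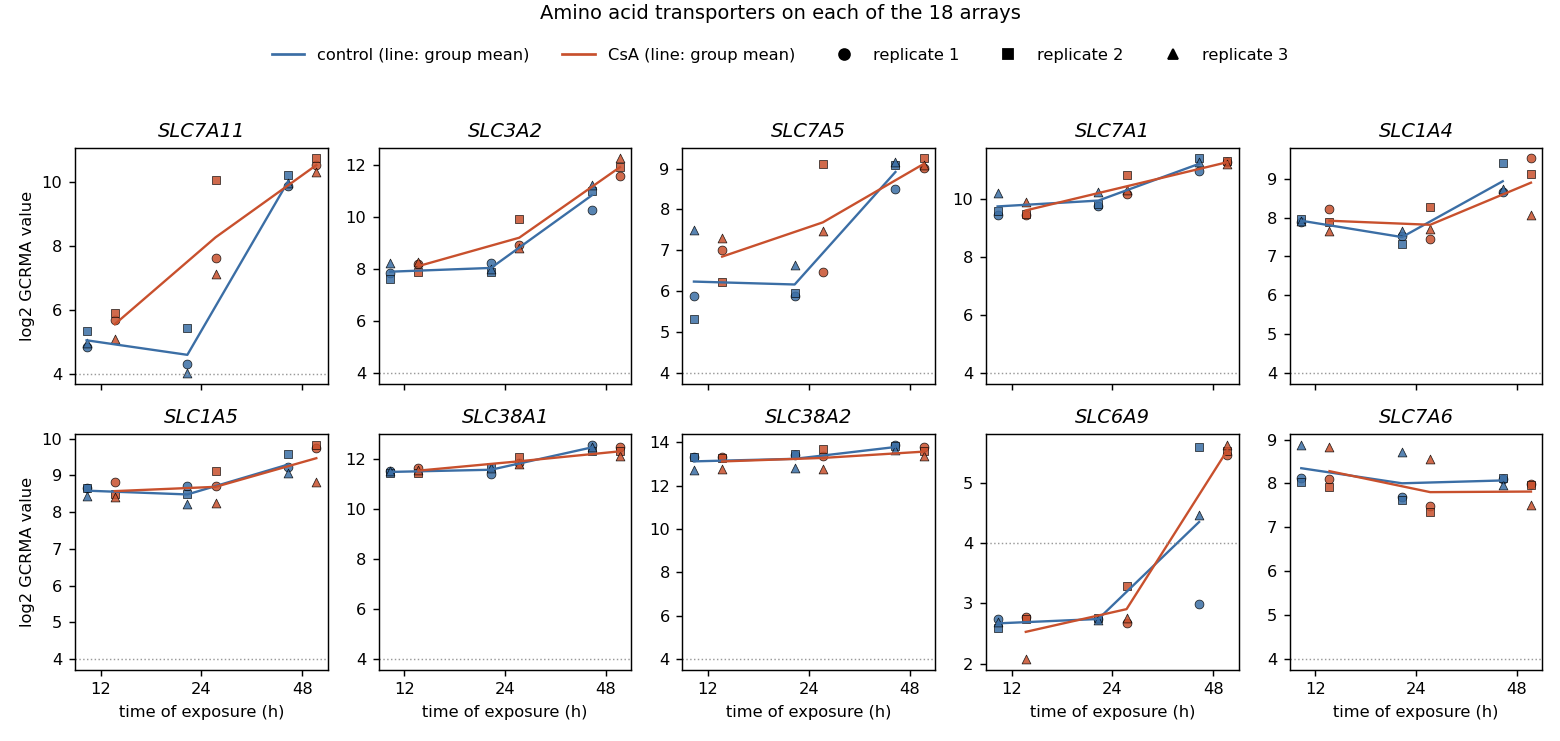
Log2 GCRMA value of each of the 10 transporters on each array against time of exposure, with times evenly spaced, lines through group means and the dotted line at the testing level of 4. SLC7A11 climbs from a mean of 4.61 in controls at 24 h to 10.03 at 48 h, and its CsA arrays at 24 h lie between the controls of those times, except replicate 2 at 10.08.

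SLC7A11, the cystine light chain, was read from probe set 217678_at. It had values of 4.86, 5.36 and 4.98 on the control arrays at 12 h (replicates 1 to 3 here and below) and 5.69, 5.91 and 5.10 on the CsA arrays. The ranges overlapped, since the lowest CsA array lay below the highest control array. At 24 h the control values were 4.34, 5.45 and 4.05, and the CsA values 7.64, 10.08 and 7.13. Every CsA array lay above every control array, and replicate 2 was the highest in both groups. The difference was 3.67 ± 0.57 (SE of the fit, n = 3 per group), a 12.8-fold difference and the largest of the 10713 genes tested. Its limma adjusted p was 0.122 without a block and 0.00688 with it, and in the fit with the block SLC7A11 was the only gene called (0.00933% of those tested). Without a block 0 genes were called at 24 h, 405 genes had an unadjusted p under 0.05, and 5 of the 10 transporters were among them. Without a block the call appeared when CsA replicate 2 or 3 of 24 h was left out, at 2.78 and 4.25. With the block it was lost without control replicate 1 of 24 h (adjusted p 0.0839) and without replicate 1 or 3 of all groups. In a fit of the 24 h arrays alone the adjusted p was 0.999, and 0.156 with the block.

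At 48 h SLC7A11 had values of 9.89, 10.22 and 9.99 in controls and 10.55, 10.75 and 10.32 with CsA. The groups did not overlap, but the difference of 0.51 ± 0.57 was not called (limma adjusted p 0.746, 0.454 with the block). Control cultures themselves rose by 5.42 ± 0.57 from 24 to 48 h, a 42.8-fold change and the largest rise of all genes tested (adjusted p 1.1e-04). This rise was present in each replicate, at 5.55, 4.77 and 5.94. Both the CsA comparison at 24 h and that of control at 48 h with 24 h use the 24 h control arrays. In this probe set, though not in 209921_at, they had the lowest SLC7A11 mean of the 6 groups, at 4.61 ± 0.74 (SD). In order of their means the groups ran control at 24 h (4.61), control at 12 h (5.07), CsA at 12 h (5.57), CsA at 24 h (8.28), control at 48 h (10.03) and CsA at 48 h (10.54). Neighbours in the first 3 places overlapped, as did CsA at 24 h and control at 48 h.

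SLC3A2, the heavy chain shared by SLC7A11, SLC7A5 and SLC7A6, had 7.85, 7.60 and 8.24 in controls at 12 h and 8.20, 7.86 and 8.26 with CsA. At 24 h its values were 8.23, 7.87 and 8.01 in controls and 8.90, 9.91 and 8.79 with CsA. At 48 h they were 10.27, 10.98 and 11.24 in controls and 11.56, 11.94 and 12.25 with CsA. The groups overlapped at 12 h and were separate at 24 and 48 h, with CsA higher. The difference at 24 h was 1.16 ± 0.30 (limma adjusted p 0.999, 0.236 with the block), the 18th from the top among all genes. The difference at 48 h was 1.09 ± 0.30, with an adjusted p of 0.104 and of 0.0355 with the block.

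The block called 10.8% of all genes at 48 h, 4.82% as higher, so SLC3A2 was 1 of 516 genes that rose there. Without a block 47 genes were called at 48 h (0.439%), 1718 had an unadjusted p under 0.05, and SLC3A2 and SLC6A9 were the 2 transporters among the latter. With the block, the call of SLC3A2 was lost without CsA replicate 2, CsA replicate 3 or control replicate 1 of 48 h, the lowest value being 0.85. It was also lost without replicate 1, 2 or 3 of all groups (adjusted p 0.195, 0.1 and 0.109). Control cultures rose by 2.79 ± 0.30 in SLC3A2 from 24 to 48 h (adjusted p 1.4e-04). Its means ran from 7.89 in controls at 12 h through 8.04 (control, 24 h), 8.11 (CsA, 12 h), 9.20 (CsA, 24 h) and 10.83 (control, 48 h) to 11.92 (CsA, 48 h), and only the first 3 overlapped one another.

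SLC7A5, the light chain that exchanges large neutral amino acids such as leucine, had the largest SE of the 10. Controls had 5.87, 5.33 and 7.51 at 12 h, and CsA arrays 7.01, 6.22 and 7.30. At 24 h controls had 5.89, 5.96 and 6.64, and CsA arrays 6.46, 9.12 and 7.47. At 48 h controls had 8.49, 9.09 and 9.16, and CsA arrays 9.01, 9.25 and 9.09. CsA and control arrays overlapped at every time, and at 24 h CsA replicate 2 stood far above the rest. The difference at 24 h was 1.52 ± 0.60, the 11th from the top, and was not called (limma adjusted p 0.999, 0.414 with the block). Without CsA replicate 2 of 24 h it was 0.80. From 24 to 48 h in controls SLC7A5 rose by 2.75 ± 0.60 (adjusted p 0.00932).

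SLC7A6, the light chain that exchanges cationic for neutral amino acids, was the exception in both comparisons. Its control values were 7.68, 7.62 and 8.71 at 24 h and 8.10, 8.13 and 7.97 at 48 h, which overlapped. The change in controls was 0.06 ± 0.36. With the block and without replicate 3 of all groups it was 0.47 and was called (limma adjusted p 0.0154). In the brightest probe set the CsA array was slightly below its control in every one of the 9 pairs, by between 0.01 and 0.46. No difference was called at any time (limma adjusted p 0.823 or more, 0.612 or more with the block). At 24 h replicate 3 was high in both groups, at 8.71 in the control and 8.57 with CsA.

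SLC7A1 takes up cationic amino acids such as arginine and needs no heavy chain. Its control values were 9.77, 9.85 and 10.25 at 24 h, and its CsA values 10.20, 10.83 and 10.32. At 48 h control values were 11.00, 11.42 and 11.28, and CsA values 11.31, 11.32 and 11.23. In the brightest probe set CsA and control overlapped at both times. The difference at 24 h was 0.49 ± 0.22 (limma adjusted p 0.999, 0.437 with the block), and that at 48 h 0.06 ± 0.22. In controls SLC7A1 rose by 1.27 ± 0.22 from 24 to 48 h (adjusted p 0.00268). Its probe set of largest SD, 206566_at, whose control values were below 4 except 4.98 in replicate 3 of 48 h, gave 0.99 and was not called (adjusted p 0.203).

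The sodium-dependent neutral transporters fall into SLC1A4 and SLC1A5, which exchange amino acids such as serine and glutamine, and SLC38A1 and SLC38A2, which accumulate glutamine and alanine. SLC1A4 had control values of 7.52, 7.33 and 7.65 at 24 h and 8.65, 9.42 and 8.74 at 48 h, a rise of 1.44 ± 0.32 (limma adjusted p 0.0103). From 12 to 24 h its control arrays did not overlap, with 24 h lower, the only such transporter of the 10 (3.09% of all genes). The change of -0.42 ± 0.32 was not called. In the other probe sets of SLC1A4 that reached 4 these arrays overlapped, with a change of 0.11 in 209611_s_at. Without control replicate 2 of 48 h the rise of the brightest probe set to 48 h was no longer called, at 1.20 and an adjusted p of 0.0513. SLC1A4 differed between CsA and control by 0.32 ± 0.32 at 24 h and by -0.04 ± 0.32 at 48 h. Its CsA values at 48 h spread from 8.06 in replicate 3 to 9.53 in replicate 1.

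SLC1A5 had 8.72, 8.50 and 8.22 in controls at 24 h and 9.23, 9.59 and 9.07 at 48 h, which did not overlap. The change of 0.81 ± 0.27 missed the threshold without a block (limma adjusted p 0.0574) and passed with it (0.00387). It also passed without a block when CsA replicate 2 or 3 of 24 h or CsA replicate 3 of 48 h was left out. SLC1A5 differed between CsA and control by 0.21 ± 0.27 at 24 h and 0.17 ± 0.27 at 48 h, within the spread.

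SLC38A1 had 11.40, 11.65 and 11.63 in controls at 24 h and 11.83, 12.09 and 11.78 with CsA. The groups did not overlap, yet the difference of 0.34 ± 0.12 was not called (limma adjusted p 0.999, 0.411 with the block). At 48 h the values were 12.56, 12.32 and 12.48 in controls and 12.47, 12.31 and 12.12 with CsA, and the difference was -0.16 ± 0.12. In controls SLC38A1 rose by 0.89 ± 0.12 (adjusted p 6.9e-04).

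SLC38A2 was bright on every array. Its controls had 13.41, 13.48 and 12.84 at 24 h and 13.90, 13.82 and 13.65 at 48 h. They did not overlap, and the change of 0.55 ± 0.25 was called only with the block (limma adjusted p 0.161 without it, 0.00478 with it). Replicate 3 was the lowest control array at each time. CsA differed from control by 0.04 ± 0.25 at 24 h and -0.21 ± 0.25 at 48 h.

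SLC6A9, the glycine transporter, was at 3.29 or below on all 12 arrays of 12 and 24 h, where GCRMA compresses differences. Its values at 48 h were 2.99, 5.60 and 4.47 in controls and 5.46, 5.53 and 5.64 with CsA. Control replicate 1 stayed at the level of the earlier times while the CsA arrays lay between 5.46 and 5.64. The groups overlapped, and the difference of 1.19 ± 0.44 was not called (limma adjusted p 0.203, 0.0773 with the block). Without control replicate 2 of 48 h it was 1.81 and was called, with an adjusted p of 0.022, and without control replicate 1 it was 0.51. The rise in controls from 24 to 48 h was 1.61 ± 0.44 (adjusted p 0.0265), and the gene was tested only because of its 48 h level. With values below 4 raised to 4 the rise was 0.69 and was not called (adjusted p 0.0951), and with no level filter it was not called either (0.0575). That rise was no longer called without any one of the 24 h control arrays, or without control replicate 2 or 3 of 48 h. Leaving out control replicate 1 of 48 h gave 2.29, and leaving out replicate 2 gave 0.99.

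**Figure D2:**
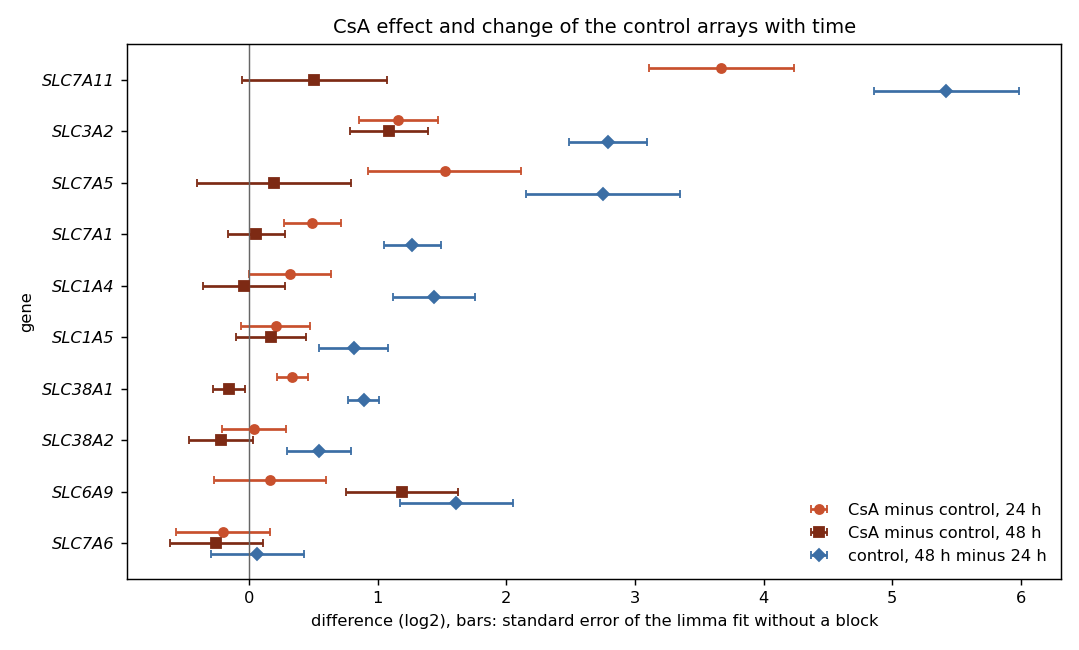
Log2 difference of each transporter between CsA and control at 24 and 48 h and between control arrays at 48 and 24 h, with SEs of the limma fit without a block as bars. The rise in controls, 5.42 for SLC7A11 and 2.79 for SLC3A2, exceeds both CsA differences for all 10 genes, and SLC7A6 is the only one with a rise under 0.1.

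Single arrays were also ordered, using the brightest probe sets. At 24 h 3 transporters had all CsA arrays above all control arrays (SLC7A11, SLC3A2 and SLC38A1). At 48 h 2 had (SLC7A11 and SLC3A2). At 12 h there was none. Among all genes tested, 3.26% were separate in this direction at 12 h, 4.56% at 24 h and 8.25% at 48 h. None of the 10 had all CsA arrays below all control arrays. From 24 to 48 h in controls, 9 of the 10 were separate and higher, all but SLC7A6, against 14.9% of all genes. The median difference of the 10 between CsA and control was 0.33 at 24 h, with 9 positive, against -0.01 and 48.0% positive among all genes. For control at 48 h against 24 h the median was 1.36, against 0.00 among all genes.

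The size of the CsA difference varied between pairs of same-numbered arrays. SLC7A11 was higher with CsA in all 9 pairs, by 0.83, 0.56 and 0.12 at 12 h, 3.30, 4.63 and 3.08 at 24 h, and 0.66, 0.53 and 0.33 at 48 h. SLC3A2 was also higher in all 9, by 0.35, 0.26 and 0.03, then 0.68, 2.04 and 0.77, then 1.29, 0.95 and 1.01. SLC7A5 was higher in 7 of 9, with 3.16 in pair 2 of 24 h against 0.57 and 0.83 in the other two.

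Of the 3 pairs at 24 h, pair 2 had the widest difference for each of the 10 transporters. The median over the 10 was 0.79 in that pair, 0.21 in pair 1 and 0.06 in pair 3, while the medians over all genes lay between -0.01 and 0.01. Only SLC7A11, SLC3A2 and SLC7A5 exceeded 0.5 in pairs 1 and 3 of 24 h. SLC38A1 was positive in the 3 pairs of 24 h (0.43, 0.44 and 0.15) and negative in those of 48 h (-0.10, -0.01 and -0.36).

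**Figure D3:**
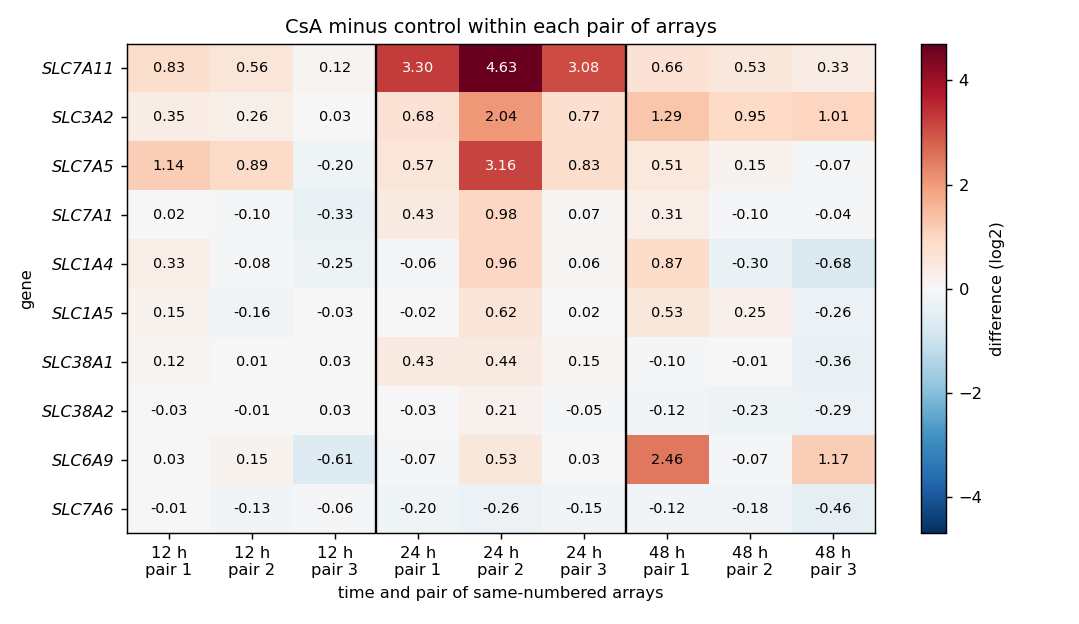
CsA minus control in log2 within each pair of same-numbered arrays, by gene (rows) and by time and pair (columns), red for higher with CsA and blue for lower. In the brightest probe sets shown, SLC7A11 and SLC3A2 are positive in all 9 pairs and SLC7A6 is negative in all 9. Pair 2 at 24 h reaches 4.63 for SLC7A11 and 3.16 for SLC7A5.

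Averaged over the 3 times, SLC7A11 differed by 1.56 ± 0.33 and SLC3A2 by 0.82 ± 0.18. Each had a limma adjusted p of 0.072 without a block, and both rose with it (0.00926 and 0.023). Without a block 9 genes were called (0.084%), none of them among the 10. Of the 10, 3 had an unadjusted p under 0.05, against 12.2% of all genes. With the block 4.61% of all genes were called, 2.11% as higher. SLC7A5 differed by 0.78 ± 0.34 (adjusted p 0.378, 0.166 with the block). With the block, SLC7A11 kept its call whichever single array was left out, and SLC3A2 in 14 of 18 cases. SLC3A2 lost it without CsA replicate 1 or control replicate 2 of 12 h and without control replicate 2 or 3 of 24 h. Without replicate 1 of all groups both calls in the average were lost (adjusted p 0.11 for SLC7A11 and 0.132 for SLC3A2), as they were without replicate 3 of all groups (0.0513 and 0.0681). Without replicate 2 of all groups SLC7A11 kept its call (0.032) and SLC3A2 did not (0.188).

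Whether the CsA difference changed with time was tested directly. The SLC7A11 difference was larger at 24 h than at 12 h by 3.17 ± 0.80, and the step from 24 to 48 h was -3.16 ± 0.80, but neither passed adjustment (limma adjusted p 1 and 0.866, and 1 and 0.118 with the block). For the first step 0 genes were called in either fit, and for the second 0.0373% of genes, or 0.0467% with the block. In the F test over times, 0 of the 10 were called with or without the block, 2 had an unadjusted p under 0.05 in each fit, and 4 genes in all were called (0.0373%, and 0.028% with the block). At 12 h 0 genes were called in either fit, 98 had an unadjusted p under 0.05 without a block, and none of the 10 was among them. Nor was any of the 10 called between control at 24 h and control at 12 h, where 0 genes were called and 131 had an unadjusted p under 0.05. Over the 3 control times together the F test called the same 7 transporters as the step from 24 to 48 h, and 14.2% of all genes. With the block it called 9 of the 10, and 33.5% of all genes.

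CsA cultures at 24 h were also set beside control cultures at 48 h, which share no array with them. SLC3A2, SLC7A1, SLC1A4 and SLC38A1 lay wholly below the 48 h controls, where 11.0% of all genes did. The other 6 overlapped the 48 h controls. In replicate 2, CsA at 24 h was within 0.14 of control at 48 h for SLC7A11 and within 0.03 for SLC7A5, while in replicates 1 and 3 SLC7A11 was 2.24 and 2.86 below. SLC3A2 was below in every replicate, by 1.36, 1.07 and 2.45. These contrasts were not tested.

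The 10 transporters had 27 probe sets. For SLC7A11 the probe set 209921_at, of nearly the same mean brightness, had 5.38, 6.09 and 4.35 in controls at 24 h and 7.51, 9.73 and 7.03 with CsA, again without overlap. Its difference was 2.82 at 24 h and 0.35 at 48 h, and its rise in controls 4.63. From 12 to 24 h its controls changed by 0.50, against -0.45 in the brightest probe set. Its lowest group was control at 12 h, with 4.99, 5.02 and 4.30. At 12 h its CsA arrays (5.86, 6.14 and 5.13) lay above all its controls, and at 48 h its groups overlapped. A dim probe set, 207528_s_at, read 2.04, 5.39 and 2.04 with CsA at 24 h, so only replicate 2 left background there. At 48 h it read 3.17, 6.16 and 6.45 in controls and 6.33, 7.06 and 7.21 with CsA. These groups overlapped, and their difference of 1.61 was widest in replicate 1. The mean of all SLC7A11 probe sets gave 2.54 at 24 h.

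Other probe sets of SLC7A1, SLC1A4, SLC38A1 and SLC38A2 that reached 4 were higher in controls at 48 h than at 24 h, as the brightest ones were, by between 0.53 and 2.07. One of SLC38A1, 224580_at, had 0.16 at 48 h between CsA and control, opposite in sign to the -0.16 of the brightest. In 218237_s_at of SLC38A1 CsA and control overlapped at 24 h, where the brightest did not. Unlike the brightest, 212292_at of SLC7A1 had all CsA arrays above all controls at 48 h, with a difference of 0.51. So did 212810_s_at of SLC1A4 at 24 h, at 0.74. One of SLC7A6, 203578_s_at, was opposite to the brightest both at 48 h (0.14) and in the controls from 24 to 48 h (-0.38). In pair 1 of 12 h and pair 2 of 48 h both other SLC7A6 probe sets were higher with CsA, unlike the brightest. SLC3A2, SLC7A5, SLC1A5 and SLC6A9 had 1 probe set each.

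A list of 30 other amino acid transporters gave 19 tested genes, of which 4 rose in controls from 24 to 48 h: SLC6A15, SLC7A2, SLC38A9 and CTNS, the lysosomal cystine exporter. Their rises were 1.05, 1.48, 0.52 and 1.38, and 7.33% of all genes were called higher there. With the block the same 4 rose, against 16.6% of all genes, and SLC36A4 and SLC38A5 fell, against 16% called lower. The median of the 19 was 0.08. At 24 h 0 were called between CsA and control, 1 had an unadjusted p under 0.05 (3.78% of all genes did), and the median was -0.03. At 48 h 0 were called and 3 had an unadjusted p under 0.05, as did 16% of all genes. With the block 2 fell at 48 h, where 6% of all genes were called lower. These were SLC3A1, the heavy chain of the tubular cystine transporter (limma adjusted p 0.0242), and SLC43A3 (0.00777), both chosen after their values were seen. In the fit without a block they differed by -1.37 ± 0.79 and -0.83 ± 0.79 (adjusted p 0.44 and 0.69). SLC6A20 differed by -0.84 ± 0.30 (adjusted p 0.183, 0.0574 with the block) and SLC6A6, the taurine transporter, by -0.71 ± 0.49 (0.547, 0.199). SLC36A4 differed between CsA and control by -0.24 ± 0.11 at 24 h and by -0.31 ± 0.11 at 48 h (adjusted p 0.999 and 0.185, 0.49 and 0.0729 with the block). SLC38A7 differed by 0.32 ± 0.13 at 48 h (0.26, 0.142 with the block).

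Genes that handle cystine, cysteine and glutathione were represented by 12 tested of 16 listed. In controls from 24 to 48 h, CTH, which makes cysteine from cystathionine, rose by 3.28 ± 0.49 and CHAC1, which breaks down glutathione, by 2.17 ± 0.49 (adjusted p 0.00115 and 0.0121 in limma). CHAC1 lay below 4 in controls at 24 h (mean 3.61) and in both groups at 12 h, so it was tested only because of the groups where it was high. In the blocked fit 5 rose, adding GCLC, GPX4 and CBS. Of all genes 7.33% were called higher there without a block and 16.6% with it. At 24 h CTH differed between CsA and control by 1.60 ± 0.49 and CHAC1 by 1.56 ± 0.49. Of the 12, 0 were called and these 2 had an unadjusted p under 0.05, as did 3.78% of all genes. Adjusted p with the block was 0.261 and 0.269. At 48 h the block called only GSR, glutathione reductase, as lower (adjusted p 0.0435), where 6% of all genes were called lower. In the fit without a block it differed by -0.48 ± 0.33 (adjusted p 0.5355). TXNRD1 differed by 0.52 ± 0.30 at 48 h and OPLAH by 0.32 ± 0.25 at 24 h, and neither was called. GGCT differed by -0.39 ± 0.15 at 48 h (adjusted p 0.238).

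Regulators of the amino acid response and of NRF2 numbered 21 tested of 22. In controls 9 rose from 24 to 48 h, among them DDIT3, the factor CHOP, by 5.17 ± 0.58, CEBPG by 1.80 ± 0.22, ATF4 by 1.25 ± 0.20 and NFE2L2 by 0.66 ± 0.20 (limma adjusted p 1.5e-04, 3.9e-04, 0.00154 and 0.0437). The others were EIF2AK3, TRIB3, ATF3, PPP1R15A and SESN2, and 7.33% of all genes were called higher there. With the block 11 rose, against 16.6% of all genes, and 3 fell, against 16%. At 24 h 16 of 21 were positive between CsA and control, with a median of 0.32. There 0 were called, though 6 had an unadjusted p under 0.05, against 3.78% of all genes. DDIT3 differed by 1.93 ± 0.58 and ATF4 by 0.82 ± 0.20 (adjusted p with the block 0.236 and 0.0907).

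KEAP1, which holds NRF2 down, differed by -0.41 ± 0.11 at 48 h (limma adjusted p 0.0864). It fell with the block (0.0233), where 6% of all genes were called lower. In the average over times with the block, ATF4, CEBPG and BACH1 rose, where 2.11% of all genes were called higher, and KEAP1 fell, where 2.5% were called lower. HMOX1, an NRF2 target, differed by 0.66 ± 0.31 at 48 h and was not called.

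**Figure D4:**
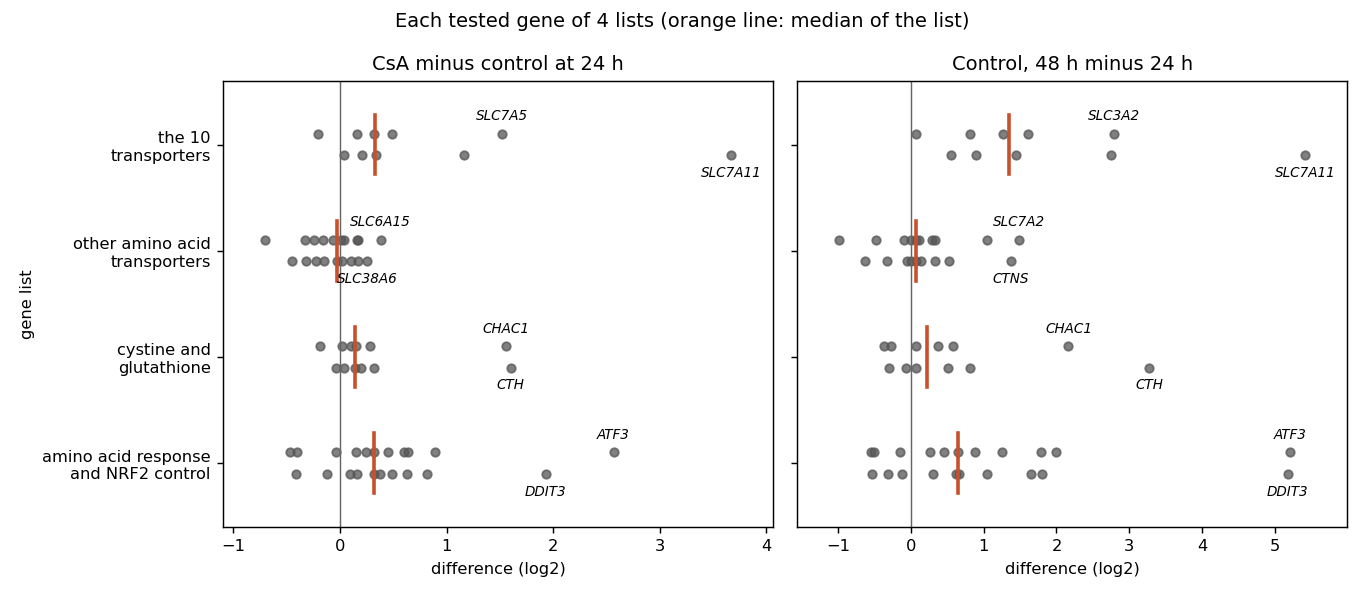
Log2 difference of every tested gene of 4 lists between CsA and control at 24 h (left) and between control at 48 h and control at 24 h (right), with an orange line at each list's median and the 2 highest genes of each list named. Both panels use the control arrays of 24 h. The 10 transporters have medians of 0.33 and 1.36, the other amino acid transporters -0.03 and 0.08.

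Markers of other cell types were followed beside these values. The summed level of the 8 annotated fibroblast markers was 42.8 to 45.2 in controls and 42.7 to 44.7 with CsA at 24 h. At 48 h it was 40.1 to 43.5 in controls and 37.0 to 40.6 with CsA. The 4 tested fibroblast markers were all negative between CsA and control at 48 h, with LUM at -1.16 ± 0.40. But in either fit 0 were called, and without a block 1 had an unadjusted p under 0.05, against 16% of all genes. All 4 were also negative in controls from 24 to 48 h, with a median of -0.47. LUM changed there by -1.16 ± 0.40 (limma adjusted p 0.0703) and was called lower with the block (0.0251), as were 16% of all genes. COL1A2, PDGFRA, PDGFRB and THY1 did not reach 4 in any group. The part of fibroblast markers in the 48 h values was not tested. Of the 8 tested genes on the epithelial and tubule list, 0 were called without a block between CsA and control or in controls from 24 to 48 h. With the block CDH1, an epithelial cadherin, was called higher with CsA at 48 h (limma adjusted p 0.0126) and CDH2, another cadherin, lower (0.0327). The block called 10.8% of all genes there. In the fit without it these were 0.86 ± 1.91 and -0.40 ± 0.14 (adjusted p 0.905 and 0.163). In controls from 24 to 48 h the block called EPCAM (0.0477) and CDH1 (0.0023) higher and PAX8 (0.0163) lower. It called 32.6% of all genes there. In the fit without a block these were 0.31 ± 0.65, 0.85 ± 1.91 and -0.41 ± 0.36 (adjusted p 0.804, 0.818 and 0.499). KRT19, a keratin, differed between CsA and control by 0.19 ± 0.32 at 24 h and -0.11 ± 0.32 at 48 h. The keratins KRT8 and KRT18 differed by 0.03 ± 0.43 and -0.07 ± 0.27 at 24 h, and by 0.54 ± 0.43 and 0.47 ± 0.27 at 48 h. None of these was called in either fit. The 6 endothelial markers summed to between 16.8 and 17.2 on every array and the 4 leukocyte markers to between 9.16 and 9.67. In bulk RNA, more cells that express a transporter and more RNA per cell cannot be told apart. Replicate 3 lay below the other two by 0.63 in SLC7A11 and by 0.50 in SLC38A2 on average, and above them by 0.55 in SLC7A5 and 0.54 in SLC7A6.

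The genes whose 9 pair differences were most like those of SLC7A11 were PDS5A (Pearson r 0.98), INHBE (0.98), UIMC1 (0.96), TMEM268 (0.96) and SLC35G1 (0.95). Over the 6 pairs of 12 and 48 h alone r was 0.04, 0.84, 0.58, 0.79 and -0.55. Only INHBE, which encodes an activin subunit, and TMEM268 also had an r of 0.94 or more over the 18 arrays, at 0.98 and 0.94. INHBE pair differences at 24 h were 2.26, 3.74 and 2.27. Among the transporters, r over the 9 pairs was 0.84 for SLC7A1, 0.83 for SLC38A1, 0.76 for SLC7A5 and 0.58 for SLC3A2, and it was negative for SLC6A9 and SLC7A6. For the same 4 named first, r over the 6 pairs of 12 and 48 h was 0.69, 0.36, 0.88 and 0.27. These correlations share arrays and are descriptions.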

How the data were processed

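Per the submitters' processing notes, the authors' deposited log2 values for 54675 probe sets on 18 arrays were made with GCRMA, version not given. The log base was taken from the range of the values. The sources used here do not say which arrays shared a normalization. GCRMA corrects background, normalizes between arrays and compresses differences near background. The number of arrays limits the precision.

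Names came from the platform annotation: 41097 probe sets had 1 symbol, 1801 several, and 11777 are unnamed here. Of the 10713 genes tested, 10706 matched RefSeq by gene ID. Some listed markers were not analysed here.

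The brightest probe set, by its mean on the 18 arrays, stood for a gene. Genes with a group mean of at least 4 were fitted in limma 3.58.1 (R 4.3.3, lmFit and eBayes, all 18 arrays, a term per group), with Benjamini-Hochberg adjustment over all genes and a threshold of 0.05. Errors are SEs of that fit, without a block, or SDs where stated. The p-values measure the spread between these samples, which may be in part technical.

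Same-numbered arrays of different groups correlated at 0.277 or more in their deviations from group means, and each of the 18 arrays was closest to one of its own number. The arrays were treated as paired by number on this basis; the labels do not state a pairing. This also reflects replicate 3 standing apart. A fit with replicate number as a block is given where it changes a call.

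The transporters and lists were chosen with earlier results of these data known. All 10 transporters are named, with the 3 genes of smallest p at 24 h and at 48 h in each list and the 5 genes most like SLC7A11. Others named as called by a fit or shown in a plot were chosen after their values were seen. The fit without a block was tested on simulated data with independent noise on each array, unlike the arrays here, which deviated together by number. The fit with the block was not tested in that way. Alternatives were other filters, a floor, 2 further normalizations, other probe sets, spread models, array weights and leaving out arrays. Python 3.11.15, pandas 2.3.3 and matplotlib 3.10.9 read promoters and drew figures.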

Additional observations from a re-analysis of the deposited data

Results flagged for a closer look

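In these genes the 3 pairs of same-numbered arrays all went one way between CsA and control at one time and all the opposite way at another. None of the differences between times passed limma's adjusted threshold, with or without the block. In its brightest probe set SLC38A1, a glutamine and alanine transporter, was positive in every pair at 12 and 24 h and negative at 48 h. Its CsA effect at 48 h minus that at 24 h was -0.49 (adjusted p 0.866, 0.274 with the block), and minus that at 12 h it was -0.21 (1.00, 0.648). The brightest other probe set of SLC38A1 differed by -0.04 at 12 h, 0.21 at 24 h and -0.20 at 48 h. In that probe set every pair at 12 h was negative, as was pair 3 at 24 h. A dimmer one was positive on average at 24 and 48 h, but negative in pairs 1 and 3 of 24 h. The pattern of the brightest probe set was thus absent from both.

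PDS5A, a cohesin regulator, was negative at 12 and 48 h and positive at 24 h. Its effect at 24 h minus that at 12 h was 0.23, and at 48 h minus that at 24 h -0.26 (adjusted p 1 and 0.915). The widest pair difference of PDS5A was -0.19. TXNRD1, thioredoxin reductase, was negative at 12 h by about 0.02 in each pair and positive later, by 0.30 more at 24 h and 0.54 more at 48 h (adjusted p 1 and 1.00). HMOX1 was negative at 24 h by at most 0.06 and positive at 48 h, with a difference between the times of 0.69 (adjusted p 0.937). The fibroblast marker LUM was positive at 24 h and negative at 48 h, with pair differences of -0.35, -1.09 and -2.04 at 48 h and a difference between the times of -1.37 (adjusted p 0.866).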

How the results depend on the processing

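Without a block, 0 of the 10 transporters were called between CsA and control at 24 h, at 48 h or in the average. The replicate block gave 1 (SLC7A11), 1 (SLC3A2) and 2. Over all genes it moved the calls from 0 to 1 at 24 h, 47 to 1159 at 48 h, 9 to 494 in the average, and 1552 to 3488 from 24 to 48 h in controls. A fit of the 48 h arrays alone with the block gave 1 (SLC3A2), among 828 genes called. Array weights, which did not fully converge, gave 4 at 24 h (SLC7A11, SLC3A2, SLC7A1 and SLC38A1), among 558 genes called. They gave 2 in the average, among 897. Leaving out one array gave 0 to 1 at 24 h, 0 to 1 at 48 h, 0 to 2 in the average, 5 to 8 from 24 to 48 h in controls and 4 (without control replicate 2 of 48 h) to 8 over the control times. Over all genes, leaving out a single array gave 654 to 1650 calls from 24 to 48 h in controls and 596 to 1630 over the control times. The call at 24 h was SLC7A11, without CsA replicate 2 or 3 of 24 h, the only gene called in each. The calls at 48 h were SLC3A2 without CsA replicate 1, among 563 genes called, and SLC6A9 without control replicate 2, among 266. The average gained SLC7A11 without CsA replicate 2 or 3 of 24 h, among 7 and 11 genes called. It gained SLC7A11 and SLC3A2 without CsA replicate 1 of 48 h, among 164. The cause was not tested.

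Chosen after seeing the data, leaving out one array with the block gave 0 to 1 at 24 h, 0 to 2 at 48 h, 1 to 2 in the average, 9 from 24 to 48 h in controls, 8 to 9 over the control times and 0 to 1 for the change with time. Over all genes those fits called 0 to 3, 65 to 1689, 82 to 976, 2395 to 3801, 2508 to 3940 and 2 to 166, in the same order. With the block and without replicate 2 of every group 1 was called at 24 h and 1 in the average (SLC7A11 in each). Without replicate 1 or 3 of every group 0 were called at either. At 48 h 0 were called without replicate 1, 2 or 3 of every group. Of 2505 transporter results recomputed, 2266 kept their call and direction, 133 gained and 12 lost a call, 0 called values reversed, and 94 differences not called in either fit changed sign or became 0. With 3 arrays a group and values near background compressed, small differences were not detectable.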
